A study of Homo sapiens with 4 samples.

Results

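The medium of leukaemia cells carrying a fragment of TIFA was set beside that of vector cells under the same drug, with both fragment lines as 1 group. The lines were chosen by their sample titles, and the comparison uses 3 of the 4 samples of the study and 21 of its 23 protein rows. All cells were U937, a human acute myeloid leukaemia line of monocytic character, transduced with retrovirus and selected for stable expression. The first fragment line carried F1F2, a dominant negative TIFA fragment, and received 10 µM cytarabine for 72 h. The second carried F2F3, another such fragment, and received the same drug and time. The control for both was U937 with the vector alone, also with 10 µM cytarabine for 72 h. The remaining sample, vector cells labelled PBS, has no dose or time in the sources used here and is given only beside values that need it. The labels do not say whether a line is 1 clone, and untreated fragment cells were not analysed here. The design text gives F1F2 as the name of both fragment lines, while the title and source of one give F2F3, and these were followed.

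TIFA is an adaptor protein of innate immune signalling. It binds phosphorylated threonine through its FHA domain, forms oligomers and engages TRAF6, which leads to activation of NF-kB. NF-kB is a transcription factor that induces genes of inflammatory cytokines and chemokines, TNF, IL6, CXCL1 and CXCL8 among them. Cytarabine is a nucleoside analogue that blocks DNA synthesis and a standard drug in acute myeloid leukaemia. The title of the study places TIFA between the kinase Aurora A and NF-kB in resistance to chemotherapy, so the comparison asks what cells release under the drug when TIFA is disturbed.

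Each value is the intensity of 1 protein on 1 array probed with conditioned medium, relative to a negative control at 0 and a positive control at 1. With 1 array of each line and 1 shared control array no test is possible and no p-value appears. The fragments are different constructs, so their spread (n = 2 lines) is not the error of a repeat. A protein was called higher or lower when the mean of both fragments differed from vector by at least 1.5-fold and both fragments lay on the same side of vector. For ratios, a floor was set at 0.0099, the 25th percentile over all proteins and samples. A fold that rests on an intensity under this floor is a bound and is written as "at least". Of the secreted proteins taken as markers of monocytic cells, 4 of 5 reached 0.1 (IL-8, MCP-1, TNF-alpha and RANTES). Of 4 lymphocyte proteins only IL-5 did, and IL-2 and IL-13 stayed between -0.0156 and 0.0131 in these 3 samples. The 5 monocytic markers summed to 1.40 with F1F2 and 1.27 with F2F3, against 2.44 in vector medium. TNF-alpha alone read 0.137 with F1F2 and 0.0824 with F2F3, against 0.871 in vector medium. IL-6, which is not among these markers, went the other way, with 1.47 and 1.29, against 0.431. The 4 lymphocyte proteins, values below 0 included, summed to 0.161 with F1F2 and 0.178 with F2F3, against 0.0560 in vector medium. The largest of the 4 was IL-5 with either fragment and IFN-gamma in vector medium. The part of either set of markers in the results was not tested. Whether more or fewer cells, or more or less release per cell, lies behind a level in the medium cannot be told apart, since equal numbers of cells were treated and no count at collection is given.

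Both fragment media had less TNF-alpha and GRO and more IL-6 and IL-5 than vector medium under cytarabine. In all, 5 proteins were called higher (IL-6, IL-5, IL-7, MCP-3 and IFN-gamma) and 3 lower (TNF-alpha, GRO and GRO-alpha) among 17 with a usable ratio, which is 29.4% and 17.6% of them. The members are the whole panel, so no other proteins serve as a background. Counted by position alone, both fragments lay above vector for 8 of 21 proteins (38.1%) and below it for 9 (42.9%), and vector lay between them for 4 (19.0%). The median log2 ratio of the 17 was -0.26. Nearest the threshold were IFN-gamma inside it, at 1.59-fold higher, and IL-8 outside it, at 1.45-fold lower. MIG, at 1.45-fold or more higher, was not called, and this bound does not say on which side of the threshold it lies.

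These calls depend in part on how the arrays are scaled. Setting each array to the same median shifted the log2 ratios by a median of -0.60 and gave 4 higher (23.5%) and 9 lower (52.9%) calls among 17, so that 30.8% of calls were higher, against 62.5% as deposited. Setting each array to the same sum shifted them by 0.20 and gave 6 higher (35.3%) and 3 lower (17.6%) calls, of which 66.7% were higher. The median protein of an array is itself dim, IFN-gamma at 0.0474 with F1F2, IL-7 at 0.0523 with F2F3 and IFN-gamma at 0.0328 with vector, so the first of these scalings rests on weak signals. The second rests on sums that include IL-6, itself a called protein. IL-6 made up 1.47 of 3.91 with F1F2, 1.29 of 3.67 with F2F3 and 0.431 of 4.35 with vector. IL-6, IL-5, IL-7 and MCP-3 were called higher, and TNF-alpha, GRO and GRO-alpha lower, under all 3 scalings.

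**Figure D1:**
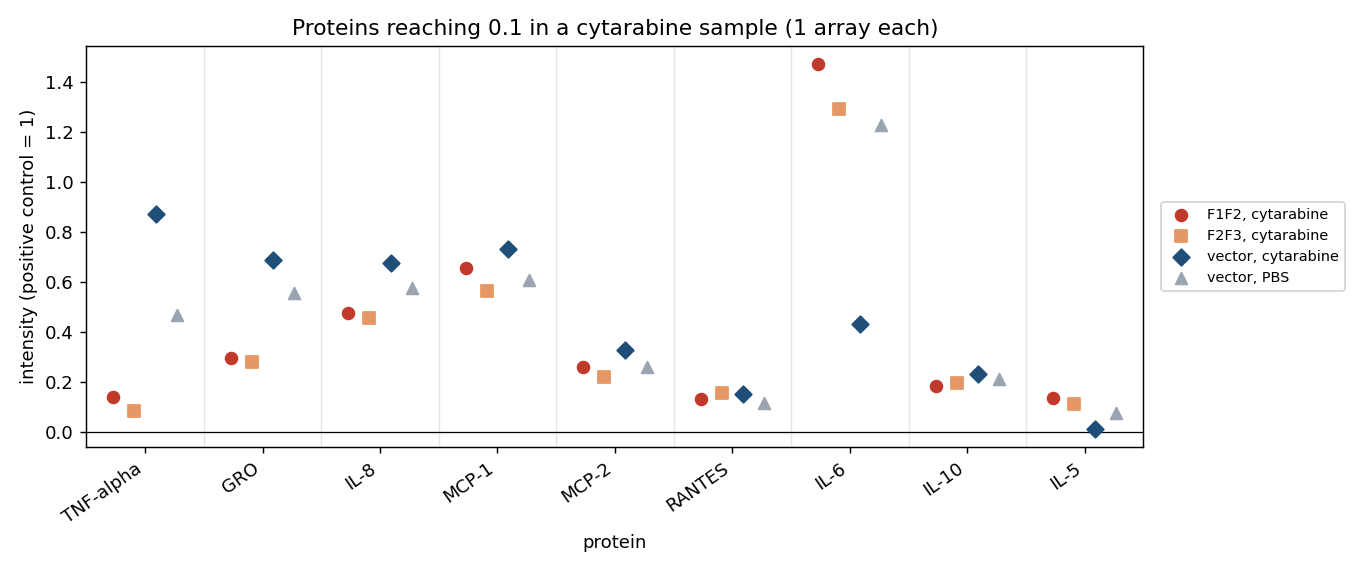
Intensity relative to the positive control (y axis) of the 9 proteins that reached 0.1 in a cytarabine sample (x axis). Each point is 1 array: F1F2, F2F3 and vector with cytarabine, and vector with PBS. Both fragment points lie below vector with cytarabine for TNF-alpha and GRO and above it for IL-6 and IL-5, while RANTES has vector between the fragments.

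TNF-alpha, which acts through the TNF receptors and is itself an NF-kB target, had an intensity of 0.137 with F1F2 and 0.0824 with F2F3, against 0.871 in vector medium and 0.467 in the PBS sample. Both fragment values lay below both vector samples. The fragment mean was 0.110 ± 0.0386 (SD, n = 2 lines), 12.6% of vector or 7.93-fold lower. The distance from vector to the nearer fragment, 0.733, was 13.4 times the difference between the fragments. TNF-alpha was also the bright protein on which the fragments differed most in relative terms, by 49.8% of their mean. IL-1-beta, which signals through the IL-1 receptor to NF-kB, was at -0.00153 with F1F2 and 0.0136 with F2F3, against 0.00993 in vector medium, so vector lay between the fragments and no direction can be given.

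Of the CXCR2 ligands, chemokines that attract neutrophils, GRO and GRO-alpha were called lower and IL-8 was lower by less than the threshold. GRO, the name of the family CXCL1, CXCL2 and CXCL3, had 0.296 with F1F2 and 0.280 with F2F3, against 0.689 in vector medium and 0.557 with PBS. The fragments were close to each other, 5.59% of their mean apart, and both were below both vector samples. Their mean was 0.288 ± 0.0114 (SD, n = 2 lines), which is 2.39-fold lower than vector, and 3.62-fold lower with arrays at the same median. The gap to vector, 0.393, was 24.5 times the difference between the fragments, the largest such multiple of all 21 proteins as deposited. With the zero of each array moved, as described with the dim proteins, it was 12.6 times, and IL-7, IL-10 and MCP-3 had larger multiples. GRO-alpha, or CXCL1 alone, was dim. It had -0.00458 with F1F2 and 0.0190 with F2F3, against 0.0608 in vector medium and 0.00224 with PBS. Both fragments were below vector with cytarabine, by at least 4.21-fold for the mean and 1.94-fold with a pseudocount of 0.05, but F2F3 was above the PBS sample. GRO and GRO-alpha overlap in CXCL1 and are not independent of each other.

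IL-8 (CXCL8) had 0.477 with F1F2 and 0.456 with F2F3, against 0.677 in vector medium and 0.574 with PBS. Both fragments were below both vector samples here too. The mean was 0.466 ± 0.0147 (SD, n = 2 lines), 68.9% of vector, and the gap of 0.200 was 9.65 times the difference between the fragments. IL-8 therefore stood outside the fragments' own spread while staying under the 1.5-fold threshold. With arrays at the same median it passed, at 2.20-fold lower. The CXCR2 ligands had a median log2 ratio of -1.26, the ratio of GRO, beside -0.26 for all proteins with a ratio. Lower calls were 2 of 3 here, beside 3 of 17 (17.6%) over all proteins with a ratio.

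The stretches of promoter upstream of TNF, CXCL1, CXCL8 and IL6 are shown because these genes are textbook NF-kB targets, while their proteins differed in opposite directions. TNF, CXCL8 and IL6 encode bright proteins of the panel. CXCL1 is part of GRO, which was bright, but GRO-alpha, or CXCL1 alone, was dim. They are 150 bases up to the annotated start, 5′ to 3′ on the gene's strand, from RefSeq on GRCh38.p14. Capitals mark GGANTTTCC, a core of the NF-kB binding motif, searched on both strands (GGAAANTCC on the other); it was chosen with these sequences in view.
TNF: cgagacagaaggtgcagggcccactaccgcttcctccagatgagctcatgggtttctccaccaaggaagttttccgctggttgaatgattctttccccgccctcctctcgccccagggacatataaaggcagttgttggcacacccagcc
CXCL1: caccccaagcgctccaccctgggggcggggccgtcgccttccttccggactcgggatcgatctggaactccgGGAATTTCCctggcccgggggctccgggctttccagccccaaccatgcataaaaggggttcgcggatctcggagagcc
CXCL8: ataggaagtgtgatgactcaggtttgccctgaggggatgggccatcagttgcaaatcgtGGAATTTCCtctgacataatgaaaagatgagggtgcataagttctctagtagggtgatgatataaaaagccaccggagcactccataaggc
IL6: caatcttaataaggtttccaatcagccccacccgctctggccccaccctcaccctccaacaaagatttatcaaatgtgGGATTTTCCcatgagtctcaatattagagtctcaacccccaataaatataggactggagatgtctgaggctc
The stretches lie upstream of the first exon, at chr6:31575415-31575564 for TNF (plus strand), chr4:73869243-73869392 for CXCL1 (plus strand), chr4:73740419-73740568 for CXCL8 (plus strand) and chr7:22727050-22727199 for IL6 (plus strand). Counted from the annotated start, the match begins at -78 in CXCL1, at -91 in CXCL8 and at -72 in IL6, and the letters are not in the TNF window. Of the 22 gene symbols of the panel, 16 had a promoter in the table, and 5 of these held a match within 250 bases upstream: CXCL1, CXCL2, CXCL3, CXCL8 and IL6. Of all 35116 promoters in the table, 1.45% did. These shares are no test, because the motif was chosen with sequences of the panel in view. The CXCL1, CXCL2 and CXCL3 stretches also share most of their letters and are not separate counts. A match is a description of the letters only. Other forms of the motif were not searched, so a stretch without a match may still hold an NF-kB site. IL6, whose protein was higher with both fragments, and CXCL1, whose family was lower, both hold one, and TNF, whose protein was lower, does not. Transcripts were not measured.

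Among the CC chemokines, which attract monocytes and lymphocytes, the 3 bright ones did not reach the threshold as deposited and the dim MCP-3 was called higher. With arrays at the same median the bright ones were called lower, MCP-1 at 1.81-fold, MCP-2 at 2.06-fold and RANTES at 1.60-fold. MCP-1 (CCL2) had 0.655 with F1F2 and 0.564 with F2F3, against 0.730 in vector medium and 0.609 with PBS. The fragments lay on either side of the PBS value, and the gap to vector was 0.82 times their difference. MCP-1 is thus below vector with both fragments by less than the fragments differ from each other.

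MCP-2 (CCL8) had 0.259 with F1F2 and 0.220 with F2F3, against 0.327 in vector medium and 0.257 with PBS. Its mean was 1.36-fold lower than vector, with a gap 1.76 times the difference between the fragments. RANTES (CCL5) had 0.129 with F1F2 and 0.157 with F2F3, against 0.150 in vector medium and 0.117 with PBS. Vector lay between the fragments, and the direction of the mean ratio turned with the scaling, from a log2 ratio of -0.07 as deposited to -0.68 at the same median and 0.14 at the same sum. MCP-3 (CCL7), which shares receptors with MCP-1, had 0.0213 with F1F2 and 0.0371 with F2F3, against 0.00313 in vector medium and 0.0108 with PBS. Both fragments exceeded both vector samples, and the mean was at least 2.95-fold higher than vector. The call ended with a pseudocount of 0.05 (1.49-fold), and it held at 1.92-fold or more with arrays at the same median. With a floor of 0.02 the mean was at least 1.46-fold higher and was not called. That bound does not say on which side of the threshold the fold lies. The 4 CC chemokines had a median log2 ratio of -0.16, with 1 called higher, beside 5 of 17 (29.4%) over all proteins with a ratio. Their median was 0.04 with arrays at the same sum and -0.77 with arrays at the same median. At the same median 3 of the 4 were called lower, beside 9 of 17 (52.9%) over all proteins with a ratio.

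**Figure D2:**
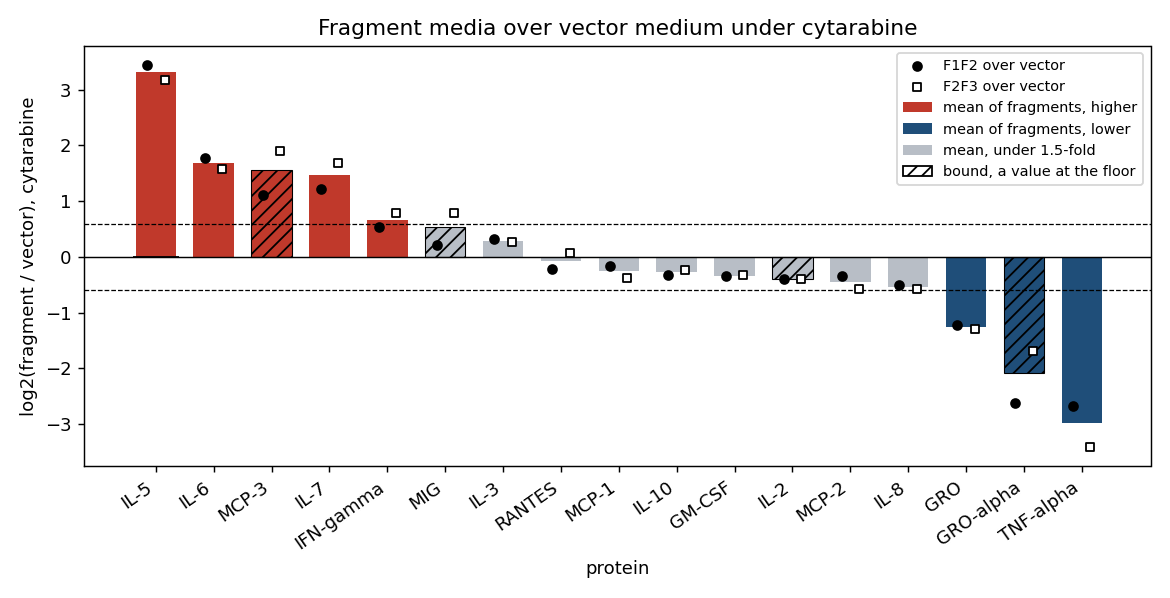
Log2 ratio of fragment media to vector medium under cytarabine (y axis) for the 17 proteins with a usable ratio (x axis), in order of size. Bars are the mean of both fragments over vector, points are each fragment alone, hatching marks a lower bound and dashed lines mark 1.5-fold. The order runs from IL-5 at 3.31 to TNF-alpha at -2.99, and both points lie on the same side of 0 for every protein except RANTES.

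IL-6, IL-10 and G-CSF signal through STAT3. IL-6, the acute phase cytokine that binds gp130, had 1.47 with F1F2 and 1.29 with F2F3, against 0.431 in vector medium and 1.23 with PBS. Both fragments were above both vector samples. The fragment mean of 1.38 ± 0.127 (SD, n = 2 lines) was 3.20-fold higher than vector, and 2.12-fold with arrays at the same median. Set beside PBS the mean was 1.13-fold higher, so the vector sample with cytarabine was the one that stood apart. Both fragment values exceeded the positive control, and whether such signals are in the linear range is not known. IL-10, which restrains inflammation, had 0.184 with F1F2 and 0.196 with F2F3, against 0.230 in vector medium and 0.210 with PBS. The fragments were 6.51% of their mean apart and both below both vector samples, by 1.21-fold from vector with cytarabine. G-CSF, the granulocyte growth factor, stayed under the floor in every sample and has no ratio.

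IL-5, GM-CSF and IL-3 share the common beta chain of their receptors, and IL-5 was the one called, as higher. IL-5, an eosinophil growth factor, had 0.134 with F1F2 and 0.110 with F2F3, against 0.0123 in vector medium and 0.0741 with PBS. Both fragments were above both vector samples. The mean of 0.122 ± 0.0165 (SD, n = 2 lines) was 9.92-fold higher than vector, with a gap 4.21 times the difference between the fragments. That fold rests on a vector value close to the floor. It was at least 6.10-fold with a floor of 0.02, 6.57-fold with arrays at the same median and 2.76-fold with a pseudocount of 0.05, called higher in each.

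GM-CSF, a growth factor of granulocytes and macrophages, had 0.0497 with F1F2 and 0.0503 with F2F3, against 0.0634 in vector medium and 0.0468 with PBS. The fragments were 1.24% of their mean apart, the closest of the proteins with a mean above the floor, and the gap to vector exceeded their difference, both only as deposited. The mean was 1.27-fold lower than vector with cytarabine and lay above the PBS sample. IL-3, which acts on blood progenitors, had 0.0409 with F1F2 and 0.0392 with F2F3, against 0.0328 in vector medium and 0.0193 with PBS. Both fragments were above both vector samples, at 1.22-fold over vector with cytarabine. With arrays at the same median the log2 ratio of IL-3 turned from 0.29 to -0.31.

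The common gamma chain cytokines sustain lymphocytes, and IL-7 was the one called, as higher. It had 0.0377 with F1F2 and 0.0523 with F2F3, against 0.0162 in vector medium and 0.0347 with PBS. Both fragments exceeded both vector samples, F1F2 by little over PBS. The mean was 2.78-fold higher than vector with cytarabine, a call that ended with a pseudocount of 0.05 (1.44-fold) and held at 1.82-fold with arrays at the same median. IL-2 had -0.00462 with F1F2 and 0.00782 with F2F3, against 0.0131 in vector medium and -0.000412 with PBS, or at least 1.32-fold lower. IL-15 stayed under the floor in all 4 samples. So did IL-13, a lymphocyte cytokine that was listed on its own and not in this group.

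IFN-gamma, the macrophage-activating interferon, had 0.0474 with F1F2 and 0.0568 with F2F3, against 0.0328 in vector medium and 0.0328 with PBS. Both fragments were above both vector samples, which read alike. The mean of 0.0521 ± 0.00669 (SD, n = 2 lines) was 1.59-fold higher than vector. This call rested on F2F3, since F1F2 alone was 1.44-fold higher, and it ended with arrays at the same median (1.04-fold) and with a pseudocount of 0.05 (1.23-fold). MIG (CXCL9), a chemokine that IFN-gamma induces, had 0.0115 with F1F2 and 0.0172 with F2F3, against 0.00909 in vector medium and -0.000349 with PBS. Its mean was at least 1.45-fold higher, a bound that does not say whether the fold reaches the threshold. MIG was therefore not called, while F2F3 alone passed the threshold at 1.73-fold or more.

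**Figure D3:**
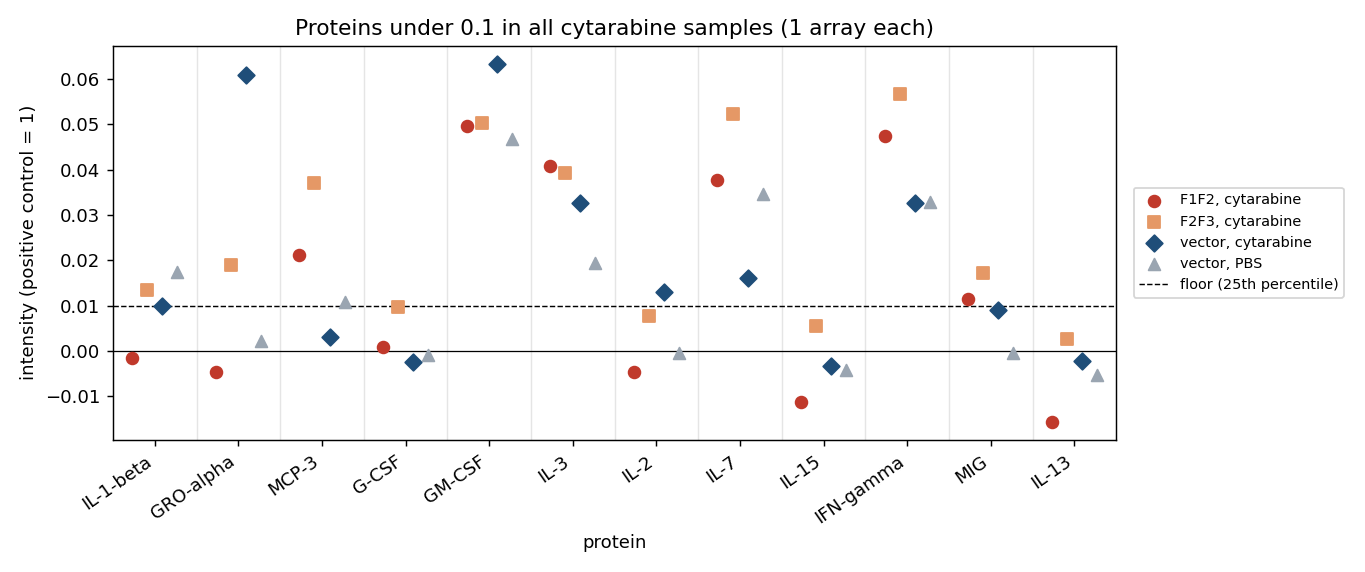
Intensity relative to the positive control (y axis) of the 12 proteins that stayed under 0.1 in all cytarabine samples (x axis). Each point is 1 array, and the dashed line is the floor of 0.0099. F2F3 lies above F1F2 for 11 of the 12, IL-3 being the exception.

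Of the 10 proteins taken as NF-kB targets, 8 had a usable ratio. TNF-alpha, GRO and GRO-alpha were called lower, IL-6 was called higher, and IL-8, MCP-1, RANTES and GM-CSF did not reach the threshold. Over all 17 proteins with a ratio, 17.6% were called lower and 29.4% higher. The median log2 ratio of the 8 was -0.44, beside -0.26 for all 17 proteins with a ratio. With arrays at the same median, 7 of 9 targets were called lower, beside 9 of 17 (52.9%) over all proteins with a ratio. IL-8, MCP-1, RANTES and GM-CSF were among the 7. The median of the targets was then -0.94, beside -0.68 for all proteins with a ratio. Of the 8 targets with a ratio as deposited, MCP-1 and RANTES had a gap to vector smaller than the difference between the fragments. TNF-alpha, GRO, IL-6, GRO-alpha, IL-8 and GM-CSF had a larger one, beside 13 of 18 (72.2%) over the panel.

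Across the panel, vector lay farther from the nearer fragment than the fragments lay from each other for 13 of 18 proteins (72.2%), of which 6 were above vector (33.3%) and 7 below it (38.9%). These were IL-6, IL-5, IL-7, MCP-3, IFN-gamma and IL-3 above, and TNF-alpha, GRO, GRO-alpha, IL-8, MCP-2, IL-10 and GM-CSF below. With the moved zero described with the dim proteins, 11 of these 13 kept such a gap, and GM-CSF and IL-3 did not. Among the 9 bright proteins the median gap was 0.0981 and the median difference between the fragments was 0.0274. A difference of 14.9% of the mean was the median for these 9, with a range of 4.45% to 49.8%. Because both fragments were set against the same vector array, an error of that array would move both ratios the same way, and a gap of this kind includes it.

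The PBS sample gives a second vector value, though under another treatment. Both fragments lay above both vector samples for 8 of 21 proteins (38.1%) and below both for 4 (19.0%), the lower ones being TNF-alpha, GRO, IL-8 and IL-10. For 8 of the 9 bright proteins the fragment mean was nearer to vector with PBS than to vector with cytarabine, and RANTES was the exception. For TNF-alpha, GRO, IL-8, IL-10, IL-6 and IL-5, PBS lay between vector with cytarabine and both fragments. Such an order by itself places the mean nearer to PBS. Among the dim proteins, the means of IL-1-beta, IL-3, IL-15 and MIG were nearer to vector with cytarabine and the rest to PBS. These distances all use the same 1 array of vector with cytarabine, and an error of that array would enter each of them. The fragment mean was still 4.25-fold lower than PBS for TNF-alpha and 1.94-fold lower for GRO, while the mean of MCP-1 was 0.610, against 0.609 with PBS, and that of MCP-2 was 0.239, against 0.257 with PBS.

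The fragments differed from each other in a way that followed brightness. F1F2 was above F2F3 for 7 of the 9 bright proteins, and F2F3 was above F1F2 for 11 of the 12 dim ones. The 3 proteins under the floor in every sample, G-CSF, IL-13 and IL-15, read on average -0.00861 with F1F2 and 0.00605 with F2F3, against -0.00263 in vector medium and -0.00343 with PBS. F2F3 was the highest of the cytarabine samples for all 3. When the zero of each array was moved to the mean of these 3, a step chosen after the values were seen, the median difference between the fragments over the other 9 dim proteins was 0.0052, against 0.0124 as deposited. Over the 9 bright proteins the same step widened it, to 0.0380 against 0.0274 as deposited. Of the other 9 dim proteins, F2F3 was then above F1F2 for 3, against 8 as deposited.

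With the moved zero, IL-7 read 0.0463 with F1F2 and 0.0462 with F2F3, against 0.0188 in vector medium. MCP-3 read 0.0299 with F1F2 and 0.0310 with F2F3, against 0.00576 in vector medium. The fragments were thus nearly equal for both proteins and above vector. GRO-alpha read 0.00402 with F1F2 and 0.0129 with F2F3, against 0.0635 in vector medium. The 5 higher calls were the same proteins as before, and the lower calls gained IL-2, at 1.59-fold or more. For IL-3 and GM-CSF the step moved the fragments apart. IL-3 read 0.0495 with F1F2 and 0.0332 with F2F3, against 0.0354 in vector medium, so that vector lay between them. GM-CSF read 0.0583 with F1F2 and 0.0443 with F2F3, against 0.0660 in vector medium, so that the gap of 0.0077 was smaller than the difference of 0.0140. The part that an offset between arrays plays in the dim values was not tested beyond this step.

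**Figure D4:**
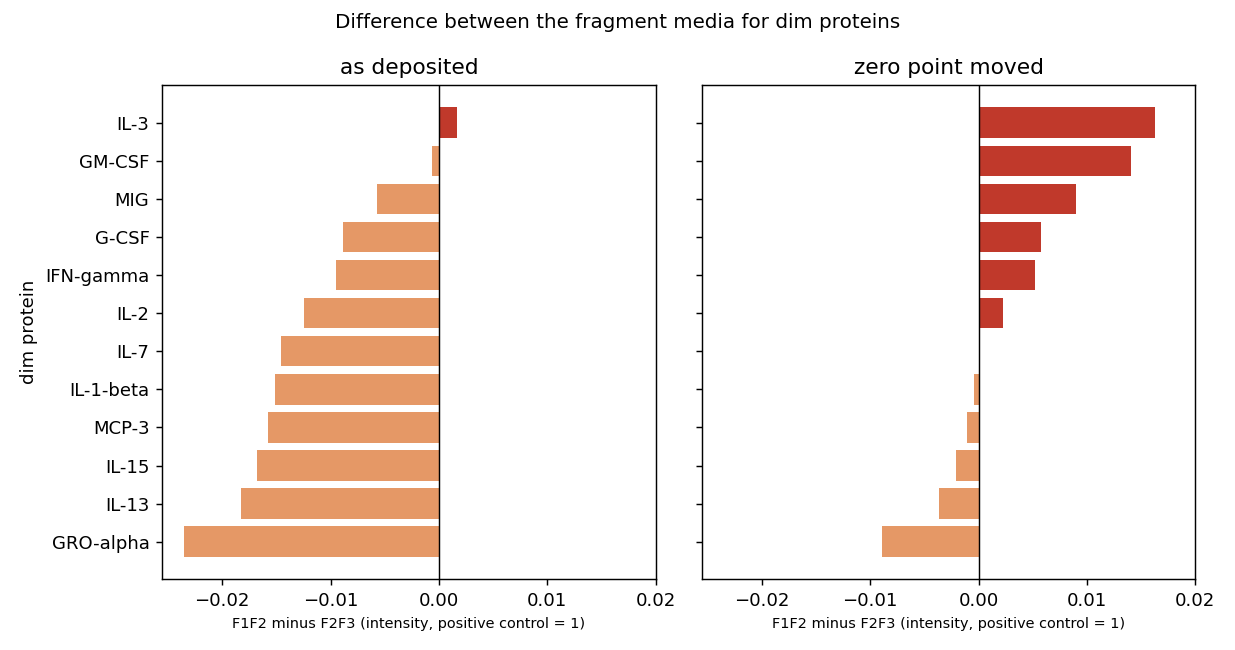
Difference in intensity between the fragment media, F1F2 minus F2F3 (x axis, positive control = 1), for the 12 dim proteins (y axis), as deposited on the left and with the zero of each array at the mean of G-CSF, IL-13 and IL-15 on the right. As deposited 11 of the 12 bars point to F2F3; with the moved zero they point both ways.

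**Figure D5:**
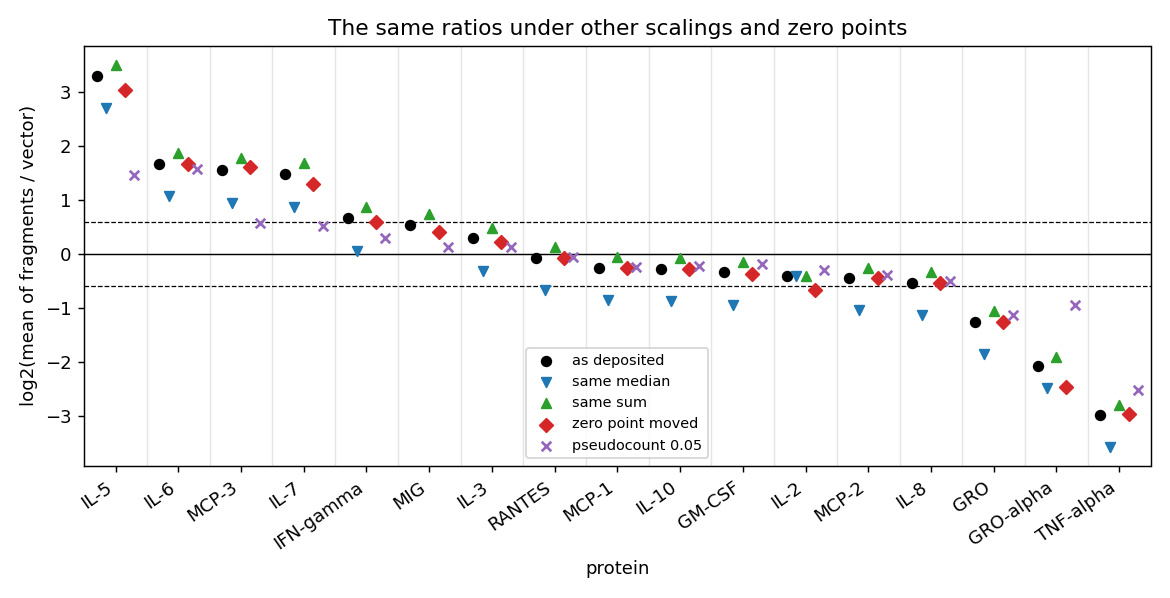
Log2 ratio of the mean of both fragments to vector under cytarabine (y axis) for the 17 proteins (x axis), as deposited and under 4 other treatments of the values; dashed lines mark 1.5-fold. TNF-alpha, GRO and GRO-alpha stay below the lower line and IL-6 and IL-5 above the upper line in every one of the 5, while the same median moves 6 further proteins below the lower line.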

How the data were processed

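The authors deposited 1 table of intensities for 4 arrays, each probed with biotin-labelled conditioned medium per the labels' protocols. In the deposited intensities the negative control row is 0 and the positive control row is 1 in every column, and 13 of 92 protein values are below 0, so they were read as linear and background-subtracted. For the array, scanner, software and averaging of spots, the sources used here give nothing. An array has no read depth; 1 array per line limits the precision.

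The TNF-beta row repeats the TGF-beta row in all 4 columns, and neither entered the ratios. For each of 21 proteins the mean of F1F2 and F2F3 was divided by vector with cytarabine, after raising values under the 25th percentile (0.0099) to it. The gap is the distance from vector to the nearer fragment. Proteins reaching 0.1 are called bright. Of 21 proteins, 3 had low signal throughout, and for IL-1-beta the floor left the direction open. Every protein was to be named. The members, lists, limits and groups by receptor were chosen with earlier results of these data known. Alternatives were scaling, floor, pseudocount, threshold, averaging of log2 ratios, each fragment alone and, chosen after seeing the data, both vector samples as control, the gap alone and a moved zero. The code was tested on simulated data with known changes and no values under the floor, so its handling of such values was not tested. Gene symbols were assigned by name, and all 22 were found in RefSeq's gene table. Python 3.11.15, pandas 2.3.3, NumPy 2.4.6 and matplotlib 3.10.9 were used.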

Additional observations from a re-analysis of the deposited data

Results flagged for a closer look

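Both lines differed from vector in opposite directions for 2 of the 18 proteins above the floor in at least 1 cytarabine sample, with each direction resting on 1 array and the difference untested. RANTES was lower than vector with F1F2, by a difference of -0.0207, and higher with F2F3, by 0.00671. IL-1-beta was lower with F1F2, by a difference of -0.0115, and higher with F2F3, by 0.00365. With the zero of each array moved to the always-low proteins, IL-1-beta read 0.00707 with F1F2 and 0.00753 with F2F3, both below the 0.0126 of vector, and RANTES read 0.138 with F1F2 and 0.151 with F2F3, both below the 0.153 of vector. IL-13 and IL-15, under the floor in every sample, also had vector between the fragments.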

How the results depend on the processing

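With 1 array per line, no value has an error of its own. As deposited, 5 proteins were called higher and 3 lower. The higher count was 2 with a pseudocount of 0.05 and 2 when only bright proteins were counted, in both cases IL-6 and IL-5. The lower count was 9 with arrays at the same median, where IL-8, MCP-1, MCP-2, RANTES, IL-10 and GM-CSF were added, 7 at the lowest threshold tried, and 7 when only the gap to the nearer fragment counted. With 1 fragment left out, the higher count ranged from 4 to 6 (IFN-gamma was lost without F2F3, and MIG was gained without F1F2) and the lower count was 3 with either. Asking each fragment to pass 1.5-fold gave 4 higher and 3 lower, and asking both to lie outside both vector samples gave 5 higher and 2 lower, without GRO-alpha. No called protein changed direction under the scalings, floor, pseudocount, averaging, moved zero or single fragments tried. No paired analysis was possible because each group is 1 sample.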
